A study of Drosophila melanogaster with 23 samples.

Results

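Heads of flies heterozygous for a mutation in kismet (kis), the Drosophila ortholog of CHD8, were compared with wild type heads by 3' mRNA sequencing. The comparison holds 8 of the 23 samples of the series, chosen by their labels: 4 libraries of CHD8/+ and 4 of wild type, each a separate biological replicate of adult heads taken 5 to 7 days post-pupation. CHD8/+ flies carry 1 copy of the allele kis1, and wild type flies are of the w1118 strain. The study gives w1118 as background in its sentence on deficiency stocks. Whether the stocks of kis1 and the other mutants share it was not tested, so genotype and stock background cannot be told apart. The other genotypes used here, each with 4 libraries of the same age and tissue, are the single heterozygotes ASH1L/+ (ash1), WDFY3/+ (bchs) and CHD2/+ (Chd1). The mutation is present in every cell of the animal, CHD8/+ is represented by a single allele, and a head holds brain, eye, muscle, fat body and cuticle together, so a change cannot be assigned to a cell type. The sex of the flies is not given in the labels.

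Kismet is a chromodomain helicase of the CHD family of chromatin remodellers. It belongs to the trithorax group, whose members keep genes active and oppose silencing by the Polycomb group, and it acts early in transcription elongation by RNA polymerase II. In flies it is needed for segmentation and homeotic gene expression, and in neurons for synaptic structure and memory. Its human ortholog CHD8 is among the genes most often mutated in autism spectrum disorder.

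The values are normalized counts, that is, counts estimated per gene and rescaled by the authors for each library and gene. Library totals were 4030172 to 4760607 in wild type and 4214035 to 5732740 in CHD8/+. From the most frequent low value of each library, these totals were estimated to stand for 3.43 to 6.31 M reads each. The study reports a higher median of mapped reads per sample, so the estimate is uncertain. Of 17559 genes listed, 8727 had at least 10 normalized counts in at least 4 of the 8 libraries and were tested as log2(value + 1), a scale that makes the changes of low genes look smaller. Head tissue was evident in every library: ninaE, the major rhodopsin, had 15475 to 41884 normalized counts and the neuronal gene elav 919.7 to 2369. The gut gene alphaTry was listed at 0 in all 8 libraries and the ovary gene osk at 0 to 7.42 normalized counts. Other genes of gut, germ line and reproductive tract were present. The 130 matched summed to 570 to 1435 normalized counts in wild type and 1037 to 1870 in CHD8/+, and 12 were tested. 18S ribosomal RNA took the largest share of any gene in both libraries numbered 1, with 8.09% in wild type and 8.29% in CHD8/+.

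The targeted gene did not separate the genotypes. kis (arm 2L, bases 210735 to 250823, BDGP6) had 2529.8, 874, 546 and 1282 normalized counts in wild type replicates 1 to 4 and 2649, 923, 705 and 485 in CHD8/+ replicates 1 to 4. CHD8/+ was slightly above the wild type library of the same number in 3 pairs and below it in the pair numbered 4, and the groups overlapped. The difference of the mean log2 levels was -0.22, with an exact two-sided permutation p = 0.714, where 4 libraries against 4 can reach 0.0286. Leaving out wild type replicate 1 or CHD8/+ replicate 4 turned the difference to 0.17 and 0.10. The libraries read the 3' end of transcripts, and whether the kis1 lesion alters that level was not tested, so the labels are checked only in part. Of 110 genes tested within 1 Mb of kis, 0 were called in the tests that follow, 3 had an unadjusted p under 0.05 in the unpaired test, and the median log2 change was -0.06.

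The first question was which genes differed between CHD8/+ and wild type heads when the libraries were compared as 2 groups of 4. Calls required a change of at least 1.5-fold together with an adjusted p under 0.05 (limma, Benjamini-Hochberg). Such calls were made for 14 genes, or 0.16% of those tested: 12 rose (0.138%) and 2 fell (0.0229%). The CHD8/+ and wild type libraries of all 14 did not overlap, a state that held for 1.86% of all genes tested with CHD8/+ above and 1.13% with CHD8/+ below. The 14 were selected on these same libraries, so their lack of overlap follows largely from that selection and adds no evidence. Over all genes the median log2 change was -0.01 and the median standard error 0.37, and 416 genes had an unadjusted p under 0.05, of which 307 were higher in CHD8/+. The count rests on single libraries: it was 54 without CHD8/+ replicate 1, 7 without CHD8/+ replicate 2, 4 without CHD8/+ replicate 3, CHD8/+ replicate 4 or wild type replicate 4, and 6 without wild type replicate 3. CG11425, CG18278, CR43105 and Cyp6a17 were called in all 8 fits that left out a library.

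**Figure D1:**
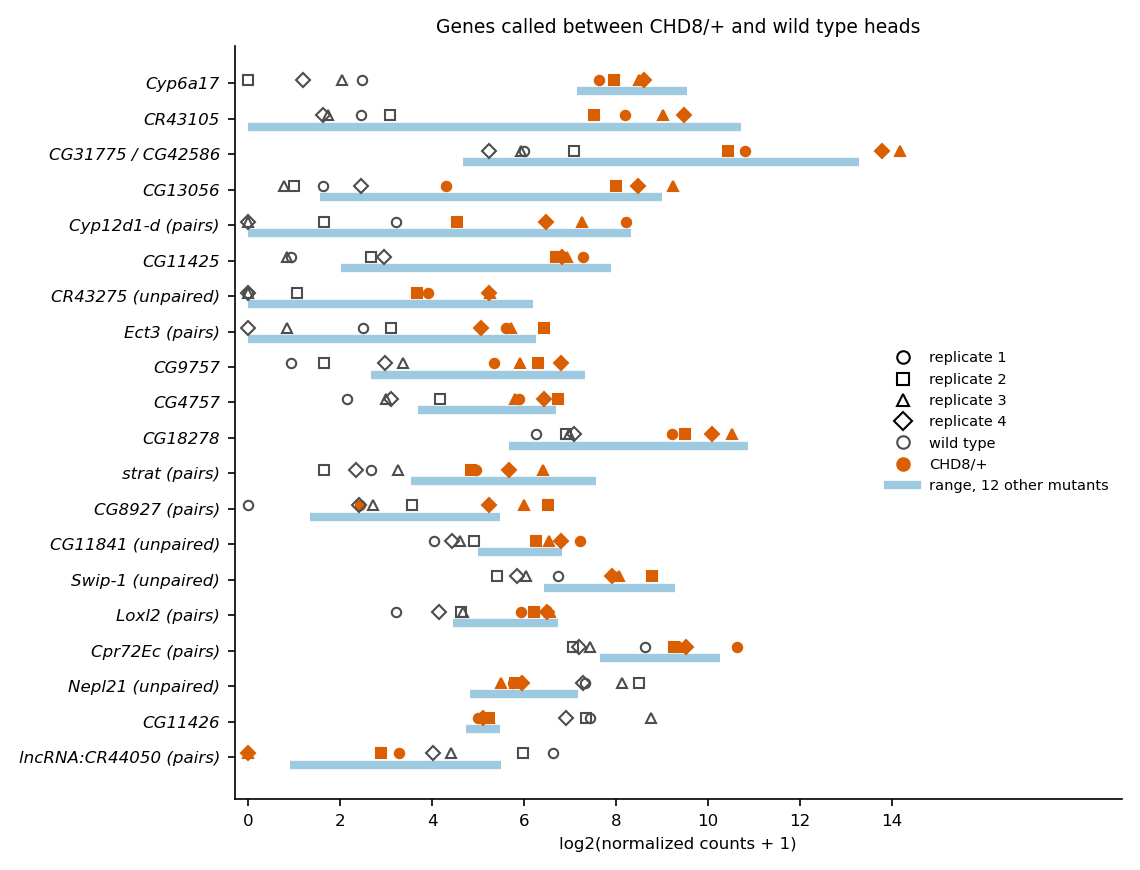
Normalized counts, as log2 after adding 1, of the 21 genes called without pairs, by same-number pairs or both, 1 row per measurement (CG31775 and CG42586 hold identical values). Open symbols are wild type libraries, filled symbols CHD8/+ libraries, symbol shapes give the replicate number, and the blue bar spans the 12 libraries of ASH1L/+, WDFY3/+ and CHD2/+; the groups are apart in every row except CG8927.

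On the log2(value + 1) scale the largest rise was in a cytochrome P450 gene. Cyp6a17, known for its part in temperature preference, had 4.57, 0, 3.13 and 1.29 normalized counts in wild type replicates 1 to 4 and 196, 247, 358 and 385 in CHD8/+ replicates 1 to 4. Every CHD8/+ library was thus above 100 and every wild type library below 10. The rise was 6.74 on the log2 scale with a standard error of 0.52, and limma gave an adjusted p of 0.000329 without pairs and 0.00483 with them. Cyp6a17 (arm 2R, bases 14873953 to 14875739) ends 89 bases before Cyp6a23, a P450 gene of the same family on the same strand. Cyp6a23 had 76, 103, 209 and 65.1 normalized counts in wild type and 35.3, 73.5, 174 and 257 in CHD8/+, with overlapping groups and a log2 difference of 0.03 (adjusted p = 0.998 from limma). That difference was negative in 7 of the alternative fits.

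A pair of adjacent genes on arm 3L moved in opposite directions. CG11425 and CG11426, which encode members of the lipid phosphate phosphatase family of wunen, lie 1285 bases apart on the same strand, at bases 22474795 to 22475792 and 22470556 to 22473509. CG11425 had 0.903, 5.36, 0.781 and 6.68 normalized counts in wild type and 155, 102, 121 and 112 in CHD8/+, a rise from 3.43 ± 3.04 to 123 ± 23 (SD, n = 4 each). The change was 5.09 on the log2 scale (standard error 0.52, adjusted p = 0.00359). CG11426 had 171, 161, 435 and 118 normalized counts in wild type and 30.9, 36.7, 36.5 and 33.4 in CHD8/+, a fall from 221 ± 144 to 34.4 ± 2.76 (SD, n = 4 each). The 4 CHD8/+ libraries lay within 6 normalized counts of each other, while wild type replicate 3 stood far above the other wild type libraries. CG11426 changed by -2.47 on the log2 scale (standard error 0.38, adjusted p = 0.0399), and 2 of the 8 fits that left out a library called it.

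**Figure D2:**
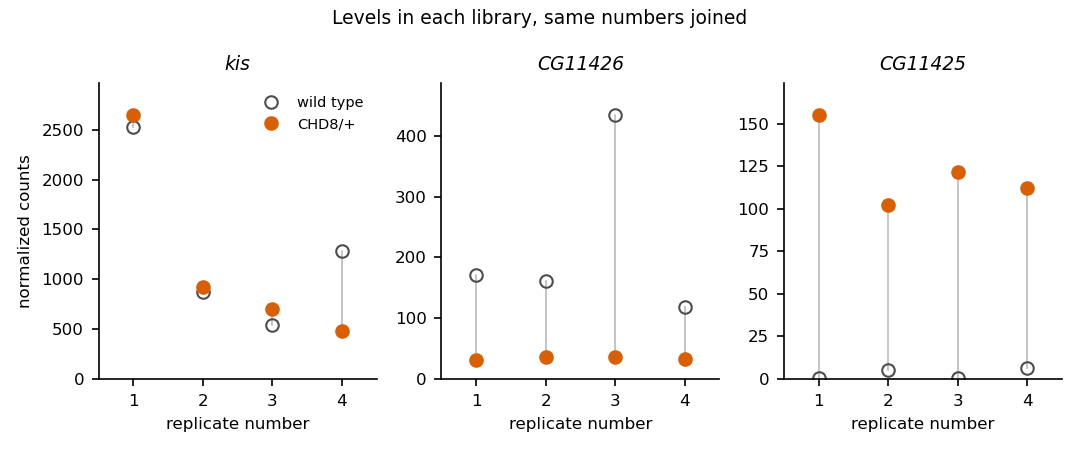
Normalized counts of kis, CG11426 and CG11425 (vertical axes, linear and starting at 0, a scale per panel) by replicate number, with wild type open, CHD8/+ filled and libraries of the same number joined by a line. For kis the order turns in the pair numbered 4 (1282 in wild type, 485 in CHD8/+), while every CHD8/+ library is below wild type for CG11426 and above it for CG11425.

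On arm 2R, 3 annotated pseudogenes within 2592 bases (15373890 to 15376481) were low or at 0 in wild type and higher in each CHD8/+ library. CR43105 had 4.47, 7.49, 2.34 and 2.06 normalized counts in wild type and 291, 183, 517 and 708 in CHD8/+, 104-fold higher on average, or 6.33 on the log2 scale (standard error 0.48, adjusted p = 0.000329). CR43275 was listed at 0 in wild type replicates 1, 3 and 4 and at 1.07 in replicate 2, against 14.1, 11.8, 37 and 36.4 in CHD8/+, and its log2 change of 4.25 (standard error 0.67) was called at an adjusted p of 0.0431 without pairs. It was not called by pairs (adjusted p = 0.0899) and was called in 0 of the 8 fits that left out a library. CR43186, with 0, 3.19, 2.31 and 0.749 normalized counts in wild type and 13.4, 20.8, 27.4 and 58.7 in CHD8/+, was not called (log2 3.61, adjusted p = 0.0944). All 3 are on the same strand. Reads of near-identical copies may be split between them by the estimate, so their separate levels are uncertain.

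The strongest of the remaining rises by adjusted p was CG18278. It had 76, 119, 125 and 135 normalized counts in wild type and 592, 726, 1477 and 1079 in CHD8/+, 8.51-fold higher on average, or 3.02 on the log2 scale (standard error 0.34, adjusted p = 0.00665). CG31775 and CG42586 held identical values in every library, as 102 tested genes did with some other gene, and are 1 measurement, so the 21 genes called with or without pairs are 20 measurements. This measurement was 62.7, 134, 60.2 and 36.9 normalized counts in wild type and 1796, 1375, 18322 and 14088 in CHD8/+. All 4 CHD8/+ libraries were above wild type, replicates 3 and 4 far above replicates 1 and 2 (log2 6.23, standard error 0.82, adjusted p = 0.0186).

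CG13056 had 2.1, 0.992, 0.701 and 4.48 normalized counts in wild type and 18.6, 256, 601 and 352 in CHD8/+ (148-fold higher on average, log2 6.04, standard error 0.92, adjusted p = 0.0399 from limma). Its rise was smallest in CHD8/+ replicate 1. Swip-1, an EF-hand protein that binds calcium and actin filaments, had 105, 41.5, 64.4 and 56 in wild type and 245, 436, 268 and 239.7 in CHD8/+, 4.45-fold higher on average (adjusted p = 0.0418 without pairs and 0.0859 with them). CG4757 rose 8.65-fold on average, from 8.77 ± 5.81 to 75.9 ± 23.9 (SD, n = 4 each), CG9757 14.9-fold, from 4.8 ± 3.96 to 71.6 ± 30.2, and CG11841 4.79-fold, from 22.1 ± 5.66 to 106 ± 30.9. Their adjusted p-values were 0.0314, 0.0396 and 0.0299 without pairs and 0.0131, 0.0209 and 0.0615 with them, so that CG11841 was not called by pairs.

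Nepl21, which encodes a neprilysin-like metallopeptidase, was the second gene that fell. It had 159, 362, 278 and 153 normalized counts in wild type and 53.2, 54.4, 43.8 and 60.7 in CHD8/+. As for CG11426, the CHD8/+ libraries were close together and the wild type libraries spread (53 ± 6.95 against 238 ± 101, SD, n = 4 each). On the log2 scale the change was -2.06 (standard error 0.32, adjusted p = 0.0431 without pairs and 0.0615 with them).

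The second comparison took the change between libraries of the same replicate number. Their deviations from the group means correlated at 0.73, 0.23, 0.25 and 0.14 in the pairs numbered 1 to 4. With replicate number in the fit, 17 genes were called, or 0.195%: 15 rose (0.172%) and 2 fell (0.0229%). Of these, 10 were also called without pairs, and 21 genes were called in either fit, 18 higher and 3 lower. All 17 changed in the same direction in all 4 pairs, as did all 14 of the unpaired fit. Over all genes tested, 10.6% were higher in all 4 pairs and 9.61% lower. The called genes were selected on these same libraries, so their shared direction follows largely from that selection and adds no evidence. The median standard error was 0.28, and 832 genes had an unadjusted p under 0.05, with 556 higher (6.37%) and 276 lower (3.16%). The count was 28 without the pair numbered 1, 11 without the second and 4 without the third or the fourth.

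Among the 7 genes called by pairs alone, Cpr72Ec had the most even change. It encodes a cuticle protein of the corneal lens, and had 392, 132, 172 and 146 normalized counts in wild type and 1582, 610.4, 666 and 733 in CHD8/+. The libraries numbered 1 were the highest of both genotypes, and the log2 change was 2.01, 2.20, 1.95 and 2.32 in the pairs numbered 1 to 4. The fit by pairs gave a standard error of 0.21 and an adjusted p of 0.0131, the unpaired fit 0.42 and 0.126. Loxl2, a lysyl oxidase-like gene of extracellular matrix crosslinking, rose 4.33-fold, from 18.2 ± 7.49 to 79 ± 15 normalized counts (SD, n = 4 each, adjusted p = 0.0355 by pairs). The gene strat rose 9.46-fold, from 5.04 ± 2.71 to 47.7 ± 26 (adjusted p = 0.0232 by pairs).

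Another P450 gene, Cyp12d1-d, whose family is mitochondrial, was listed at 8.25, 2.15, 0 and 0 normalized counts in wild type and at 294, 22.4, 151 and 87.2 in CHD8/+ (log2 5.40, adjusted p = 0.0355 by pairs). It lies beside a near-identical copy, Cyp12d1-p, so the split of reads between them is uncertain. Cyp12d1-p had 95.5, 119.6, 111 and 21.8 in wild type and 385, 84.5, 217 and 270.1 in CHD8/+, with overlapping groups and a log2 difference of 1.51 (adjusted p = 0.501 by pairs). Ect3, of the beta-galactosidase family, was listed at 4.59, 7.53, 0.785 and 0 in wild type and at 47.3, 85.6, 51.3 and 32.4 in CHD8/+ (log2 4.10, adjusted p = 0.0232 by pairs).

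CG8927 overlapped between the groups and was called by pairs alone. It was listed at 0, 10.8, 5.51 and 4.31 normalized counts in wild type and at 4.4, 90, 62.5 and 36.8 in CHD8/+, with log2 changes of 2.43, 2.95, 3.29 and 2.83 in the 4 pairs (adjusted p = 0.0355 by pairs, 0.781 without). The long non-coding RNA lncRNA:CR44050 fell, from 97.1, 62.3, 20.3 and 15.2 in wild type to 8.69, 6.35, 0 and 0 in CHD8/+ (log2 -3.72, adjusted p = 0.0232 by pairs, 0.332 without). Both genotypes were higher in replicates 1 and 2 than in replicates 3 and 4. Of the 21 genes (20 measurements), 0 lie on X (1440 of 8727 genes tested) or the fourth chromosome (83). On the other arms, 4 lie on 2L (1560 tested), 6 on 2R (1750), 5 on 3L (1601) and 6 on 3R (2078). The spread over chromosomes was not tested.

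Cuticle genes outside the calls had higher mean levels in CHD8/+, above all in replicates 2 to 4. The structural cuticle proteins are the chitin-binding proteins of the exoskeleton, and 21 of 126 listed were tested. Of these, 9 were higher in all 4 pairs (42.9%, against 10.6% of all genes). By pairs, 9 had an unadjusted p under 0.05 upward (6.37% of all genes did) and none downward. The median log2 change was 0.37, with Cpr72Ec the 1 call (0.195% of all genes were called by pairs). Cpr49Ae had 267, 448, 704 and 628 normalized counts in wild type and 611, 1488, 4999.7 and 2377 in CHD8/+ (adjusted p = 0.0777 by pairs). Its neighbours Cpr49Af and Cpr49Ag were 4.70 and 2.83 times higher on average (adjusted p = 0.108 and 0.175 by pairs). The mean log2 level of the 21 tested genes was 5.28 to 5.85 in wild type, 5.66 in CHD8/+ replicate 1 and 6.80 to 7.24 in CHD8/+ replicates 2 to 4, and the summed level of all 126 3011 to 4152 in wild type and 5280.5 to 12445 in CHD8/+. In the other mutants the sum was 13425.5 in ASH1L/+ replicate 3, above every CHD8/+ library, and at most 8966 (CHD2/+ replicate 2) in the rest. A high sum was thus not particular to CHD8/+. In bulk tissue, more cells of a type and more RNA per cell cannot be told apart.

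Crys, a crystallin-like protein of the lens, had 572, 416, 908 and 686 normalized counts in wild type and 968, 2773, 3399 and 2087 in CHD8/+. The groups of Crys did not overlap, and the adjusted p was 0.274 without pairs and 0.145 with them (limma). Of 3 corneal lens genes tested, 2 were higher on average and in all 4 pairs, Cpr72Ec and Crys. The third was not higher on average. The 24 tested genes of chitin synthesis and chitin binding had a median log2 change of 0.45, with 0 called. Of these, 3 were higher in all 4 pairs (12.5%, close to the 10.6% of all genes). By pairs, 5 had an unadjusted p under 0.05 upward, as did 6.37% of all genes. obst-A, a chitin-binding protein of the cuticle, had 29.3, 43, 46.3 and 64.9 in wild type and 54.5, 479, 479 and 170.3 in CHD8/+ (adjusted p = 0.175 by pairs), and serp, a chitin deacetylase, had 29.5, 13, 58.3 and 46.3 against 28.2, 409, 384 and 119 (adjusted p = 0.411 by pairs). In both genes CHD8/+ replicate 1 was within the wild type range and replicates 2 and 3 were the highest.

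Muscle genes showed the same split between CHD8/+ libraries. Of 29 tested, 26 were higher on average (4253 of 8727 over all genes) and 9 in all 4 pairs (31.0%, against 10.6% of all genes). By pairs, 12 had an unadjusted p under 0.05 upward (6.37% of all genes did) and none downward, and 0 were called. Their median log2 change was 0.53, and -0.02, 1.33, 0.55 and 0.45 in the 4 pairs. Flightin (fln), a protein of flight muscle thick filaments, had 21.8, 30.1, 44.6 and 78.1 normalized counts in wild type and 66.8, 111, 267 and 183 in CHD8/+ (log2 1.80, adjusted p = 0.0688 by pairs). Myosin heavy chain (Mhc) had 2429.5, 1989.9, 2176 and 2304 in wild type and 2014, 5124, 4528 and 3649 in CHD8/+ (adjusted p = 0.522 by pairs). The mean log2 level of the 29 tested muscle genes was 9.01 to 9.38 in wild type, 8.86 in CHD8/+ replicate 1 and 9.86 to 10.24 in CHD8/+ replicates 2 to 4, and the summed level of all 31 matched 44376 to 57279 in wild type and 55295 to 112725 in CHD8/+.

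**Figure D3:**
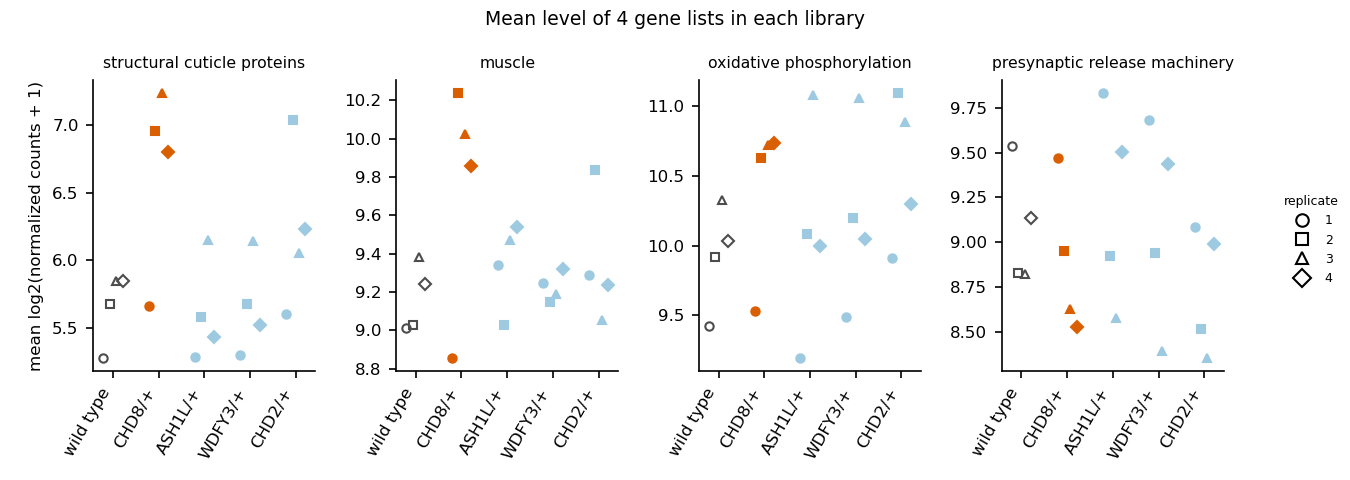
Mean log2(normalized counts + 1) of the tested members of 4 gene lists in each library, with 1 symbol shape per replicate number, for wild type (open), CHD8/+ (orange) and the other 3 heterozygotes (blue). For cuticle (6.80 to 7.24 in CHD8/+ replicates 2 to 4) and muscle (9.86 to 10.24), CHD8/+ replicate 1 is within or below the wild type range, and of the other mutants CHD2/+ replicate 2 comes closest to CHD8/+ replicates 2 to 4 (7.04 and 9.84). For oxidative phosphorylation, ASH1L/+ replicate 3, WDFY3/+ replicate 3 and CHD2/+ replicates 2 and 3 (10.89 to 11.09) lie above every CHD8/+ library.

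Genes of oxidative phosphorylation, the respiratory chain and ATP synthase of mitochondria, had higher mean levels in CHD8/+ with a single exception among those tested. Of 65 tested, 64 were higher on average and 37 in all 4 pairs (56.9%, against 10.6% of all genes). By pairs, 25 had an unadjusted p under 0.05 upward (6.37% of all genes did) and none downward, and 0 were called. Their median log2 change was 0.48, and 0.13, 0.75, 0.46 and 0.72 in the 4 pairs. ND-B14.7, a subunit of complex I, had 421, 269, 397 and 280.4 normalized counts in wild type and 552, 709, 963 and 679.9 in CHD8/+ (log2 1.08, adjusted p = 0.231 by pairs), with every CHD8/+ library above every wild type library. COX5B, of cytochrome oxidase, had 2768, 3472, 6074 and 3918 in wild type and 2983, 7532, 12824 and 10580.4 in CHD8/+, and ATPsynO, of ATP synthase, 276, 629, 628 and 699 against 391, 1096, 1010.4 and 1199 (adjusted p = 0.387 and 0.394 by pairs). In both the groups overlapped through CHD8/+ replicate 1, and the libraries numbered 1 were the lowest of each genotype. The mean log2 level of the 65 tested genes was highest in CHD8/+ at 10.74, in replicate 4. It was higher still in ASH1L/+ replicate 3 (11.08), WDFY3/+ replicate 3 (11.06) and CHD2/+ replicates 2 and 3 (11.09 and 10.89). The remaining libraries of those genotypes were below 10.74, so high levels were not particular to CHD8/+.

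The cuticle and muscle levels moved with these values. With the mean log2 level of the 50 tested cuticle and muscle genes (7.44 to 7.90 in wild type, 7.51 in CHD8/+ replicate 1 and 8.57 to 8.86 in CHD8/+ replicates 2 to 4) as a term in the unpaired fit, the median log2 change of the oxidative phosphorylation genes was -0.25. Under the same fit 5 genes were called, all higher: CG11425, CR43105, Cpr72Ec, Cyp12d1-d and Cyp6a17. Of these, Cpr72Ec and Cyp12d1-d were called only by pairs without the term. Cpr72Ec is itself among the 50 genes whose mean forms the term. With the term and replicate number together in the fit, 0 genes were called in place of 17. That fit has many terms for few libraries, so the loss of calls does not show that the changes went away. Of the genes called by pairs alone, Loxl2 and Cyp12d1-d had larger log2 changes in it. These were 2.87 and 5.97, against 2.14 and 5.40 without the term. The others had smaller changes in the same direction, such as strat with 2.35 against 2.98. CHD8/+ replicates 2 to 4 lie above every wild type library in this level. Fits with the term, here and below, therefore cannot tell genotype and cuticle and muscle level apart.

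Genes of the pathway in which Kismet acts had lower medians, mainly in the pair numbered 4, none passed the test, and the direction turned with the cuticle and muscle level as a term: the medians were then 0.25 for chromatin genes, 0.15 for elongation genes and 0.09 for homeotic and head patterning genes. Of 47 tested trithorax, Polycomb and chromatin remodelling genes, 8 were higher on average and 10 were lower in all 4 pairs (21.3%, against 9.61% of all genes). By pairs, 2 were at an unadjusted p under 0.05 downward and 0 upward (3.16% and 6.37% of all genes). Their median log2 change was -0.33, and -0.05, -0.11, -0.07 and -0.99 in the 4 pairs. Set2, a histone H3 lysine methyltransferase of elongating chromatin, had 132, 36.2, 32.1 and 47.5 normalized counts in wild type and 89.9, 33.6, 19.8 and 11 in CHD8/+, and dom, a remodeller of the SWR1 type, 323, 148, 94.9 and 187 against 235, 131, 66.7 and 78.9 (adjusted p = 0.514 and 0.517 by pairs). The groups of both overlapped. The 21 transcription elongation genes had a median log2 change of -0.10, with Polr2A, the largest subunit of RNA polymerase II, at 99.8, 51.7, 40.1 and 81.9 in wild type and 91.1, 45, 13.9 and 25.1 in CHD8/+ (adjusted p = 0.505 by pairs). Among 10 homeotic and head patterning genes, 3 were lower in all 4 pairs (30%, against 9.61% of all genes). Of the 10, 1 gene, proboscipedia (pb), had an unadjusted p under 0.05 downward by pairs (3.16% of all genes did). It had 36.9, 21.5, 12.6 and 28.5 in wild type and 29.8, 17.6, 4.64 and 3.02 in CHD8/+ (adjusted p = 0.517 by pairs).

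**Figure D4:**
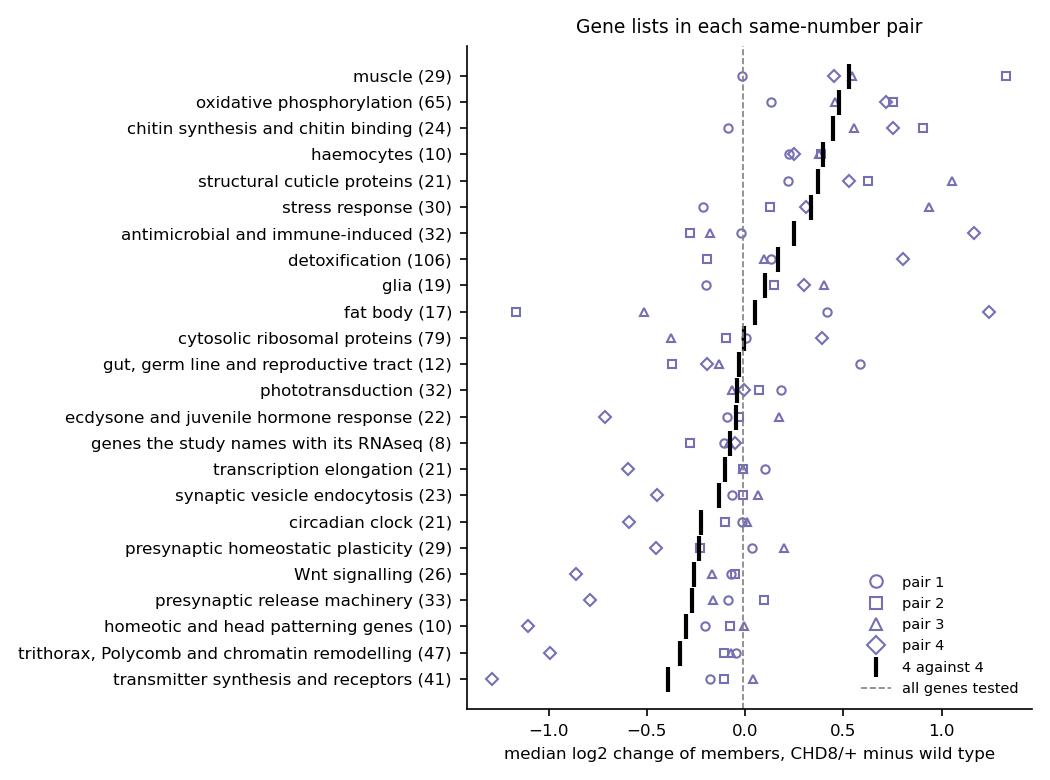
Median log2 change (CHD8/+ minus wild type) of the tested members of each gene list with at least 5 of them, whose number stands in brackets: open symbols are the 4 same-number pairs, the black bar is the comparison of 4 libraries with 4, and the dashed line is the median of all genes tested (-0.01). Among the lists drawn, the bars run from -0.39 for transmitter synthesis and receptors to 0.53 for muscle (the 3 lens genes, at 1.75, and the 4 mutated genes, at -0.38, are not drawn), and pair 4 lies farthest to the left for the neuronal and chromatin lists (-0.99 for trithorax, Polycomb and chromatin remodelling).

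Neuronal lists followed the same course across pairs. The 33 presynaptic release genes had a median log2 change of -0.27, and -0.09, 0.09, -0.16 and -0.79 in the 4 pairs, and the 41 genes of transmitter synthesis and receptors -0.39, with -1.29 in the pair numbered 4. With the cuticle and muscle level as a term these medians turned to 0.29 and 0.01. Neither list held a called gene. The active zone scaffold brp had 1308, 519, 301 and 829.9 normalized counts in wild type and 1185, 688, 342 and 232 in CHD8/+ (adjusted p = 0.757 by pairs), with a log2 change of -1.84 in the pair numbered 4 and 0.41 in the second. Single members stood apart from their list: Nsf2, a SNARE-disassembling ATPase, had 28.6, 31.2, 31.9 and 25.2 in wild type and 63.3, 66.6, 115 and 81.3 in CHD8/+, 2.79-fold higher on average with no overlap (adjusted p = 0.126 without pairs and 0.108 with them). Its paralogue comt had 120.4, 193, 234 and 177 against 71.2, 143, 85.3 and 128 (adjusted p = 0.434 by pairs). The vesicular glutamate transporter VGlut had 807, 554, 806 and 851 against 951, 1000.2, 1675 and 1168, and ple, tyrosine hydroxylase of dopamine synthesis, 154, 481, 399.9 and 227 against 209.6, 845, 707 and 899 (adjusted p = 0.465 and 0.37 by pairs).

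The pair numbered 4 also differed in sex-linked markers. The male-specific RNA lncRNA:roX1 was at 6888 normalized counts in wild type replicate 4 and 1372 in CHD8/+ replicate 4, against 2178 to 3442 in the other 6 libraries. The female yolk protein genes Yp1 and Yp3 were at 16182 and 27276 in wild type replicate 4 and at 90971 and 215944 in CHD8/+ replicate 4. Yp3 also varied within wild type. It took the largest share of any gene in wild type replicates 2 and 3 (3.96% and 3.25%), as in CHD8/+ replicate 4 (4.20%). The part of these differences in the changes of pair 4 was not tested gene by gene. With the roX1 level as a term, added after seeing the data, the unpaired fit called 4 genes, CG11425, CG18278, CR43105 and Cyp6a17, and the fit by pairs also called 4. Among the genes no longer called without pairs, some log2 changes grew (CG11426 from -2.47 to -2.75) and others shrank (CG31775 from 6.23 to 5.92). The unpaired count was also 4 when CHD8/+ replicate 4 was left out, so a count of 4 does not show a part of sex.

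In the eye, the 32 phototransduction genes had a median log2 change of -0.04 and 0 were called. By pairs, 3 had an unadjusted p under 0.05 in each direction (6.37% of all genes upward and 3.16% downward). The blue-sensitive rhodopsin Rh5 had 496, 703, 671 and 661 normalized counts in wild type and 322, 300.2, 364 and 369.9 in CHD8/+, with no overlap (log2 -0.89, adjusted p = 0.444 without pairs and 0.266 with them). Arrestin 2 (Arr2) lay above wild type in every CHD8/+ library, at 9173, 9815, 13996 and 11045 against 17420.5, 15329.7, 23871 and 16962 (log2 0.74, adjusted p = 0.781 without pairs and 0.381 with them). Of 21 clock genes, 5 were lower in all 4 pairs (23.8%, against 9.61% of all genes) and 3 higher (14.3%, against 10.6%). Those lower included Clk, the activator of the clock, at 62, 56.8, 53.7 and 19 in wild type and 36.9, 36.5, 10.5 and 8.34 in CHD8/+, and Pdf, the neuropeptide of clock neurons, at 255, 422, 526 and 473 against 177, 194, 326 and 275 (adjusted p = 0.363 and 0.348 by pairs). The groups overlapped for both, and 0 clock genes were called.

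Haemocyte genes differed in both directions. Of 10 tested, 6 were higher in all 4 pairs (60%, against 10.6% of all genes) and 2 lower (20%, against 9.61%), and 0 were called. NimC1, a phagocytosis receptor, had 2.62, 4.08, 8.95 and 3.36 normalized counts in wild type and 16.3, 26.3, 31.8 and 78.5 in CHD8/+ with no overlap, and PPO2, the prophenoloxidase of crystal cells, 35.8, 118, 146 and 166 against 13.3, 27.2, 14 and 57.7 (adjusted p = 0.127 and 0.107 by pairs). The summed level of the list was 1850 to 2499 in wild type and 2064 to 2797 in CHD8/+. Among 106 detoxification genes, 2 were called by pairs, Cyp6a17 and Cyp12d1-d (0.195% of all genes were called), 17 were higher in all 4 pairs (16.04%, against 10.6%) and 4 lower (3.77%, against 9.61%). Their median log2 change was 0.17, and 0.0093 with the cuticle and muscle level as a term. GstE14, a glutathione S-transferase needed for ecdysteroid synthesis, had 151, 157, 324 and 139 in wild type and 257, 513, 829 and 674 in CHD8/+ (adjusted p = 0.145 by pairs). The genes of glia, fat body, stress response, immune response, Wnt signalling, hormone response, endocytosis, homeostatic plasticity and cytosolic ribosomal proteins held 0 calls in either fit.

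Of 8 genes that the study names, CG11426 and Nepl21 fell, Ect3 rose by pairs, and 5 were not called. The study found Pdk1 and wrd by its genetic screen. It named Ect3, Pepck2 and Cyp6a23 for the double heterozygote CHD8/+; PPP2R5D/+, not for CHD8/+. Those named from its RNA sequencing were chosen on these or related samples and so are no independent evidence. CREG, a glycoprotein of endosomes and lysosomes, had 63.1, 52.5, 35.2 and 23.6 normalized counts in wild type and 107, 92.2, 182 and 88.6 in CHD8/+, with no overlap (log2 1.44, standard error 0.37, adjusted p = 0.416 without pairs and 0.218 with them, limma). The study reports a small but significant rise of CREG in CHD8/+, from a DESeq2 model with a batch term that was not used here. The log2 differences of Cyp6a23, Pdk1, Pepck2 and wrd were 0.03, -0.30, 0.52 and -0.19 (adjusted p of 0.98 or above without pairs).

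What was particular to CHD8/+ was tested against the mean of ASH1L/+, WDFY3/+ and CHD2/+, a contrast that uses no wild type library. Of 9358 genes tested over the 16 libraries, 0 were called (0%), 358 had an unadjusted p under 0.05, and the smallest adjusted p was 0.058. Leaving out CHD8/+ replicate 1 gave 7 calls. Among the 21 genes called against wild type the smallest adjusted p was 0.42. They were chosen on the same 4 CHD8/+ libraries, so their signs in this contrast are not independent of the choice. For CG11426 the log2 difference from the other mutants was 0.06 (95% interval -0.39 to 0.51), and its 12 other libraries ranged from 25.8 to 43.7 normalized counts, below every wild type library. For Cyp6a17 it was -0.04 (-0.69 to 0.60), with 140.2 to 742 normalized counts in the 12 libraries.

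In all, 5 of the 21 genes, CG11426, CG11841, Cyp6a17, Nepl21 and strat, had all 12 libraries of the other mutants outside the wild type range on the side of CHD8/+, and for 19 of the 21 the median of the 12 libraries lay there. These comparisons share the 4 wild type libraries on which the 21 genes were chosen, so they are not separate evidence. The share of all genes tested in this state was not computed, so these counts have no background to be set against. The log2 difference was larger for other called genes, though none passed the test. CG31775, at 24.5 to 9996 with a median of 222 in the 12 libraries, had a log2 difference of 4.32 (2.16 to 6.48), and CG13056, at 1.96 to 507 with a median of 28, had 2.99 (1.33 to 4.65), with adjusted p = 0.42 and 0.5. For CR43105, with a median of 226 in the 12 libraries, it was 2.32 (1.08 to 3.56, adjusted p = 0.47). This gene was at 157 to 1670.3 normalized counts in ASH1L/+ and 241 to 704 in CHD2/+, overlapping CHD8/+, and at 0 to 7.65 in WDFY3/+, overlapping wild type.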

How the data were processed

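RNA of adult heads was prepared by the authors with a 3' mRNA-Seq kit, assigned to BDGP6 with Salmon 0.12.0 and scaled with DESeq2. The authors deposited normalized counts (a signal: counts estimated per gene and rescaled by library and gene), from which whole reads could not be recovered, so no count model was used. The study's model has a batch term whose assignment to libraries is not given in the sources used here. Tables of authors' comparisons were not used.

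Values were compared as log2(value + 1) with limma 3.58.1 (variance trend, two-sided, Benjamini-Hochberg) in R 4.3.3, for genes with at least 10 in 4 or more libraries, called at an adjusted p under 0.05 and 1.5-fold. Tables and figures used Python 3.11.15, pandas 2.3.3, numpy 2.4.6, scipy 1.17.1 and matplotlib 3.10.9. The fits were tested on simulated data. Symbols were matched by identifier for 17253 of 17559 genes, and coordinates are those of the Ensembl annotation of the same assembly.

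Same-numbered libraries were taken as pairs because every correlation of deviations exceeded 0.1 (0.73, 0.23, 0.25 and 0.14), although CHD8/+ replicate 4 correlated at 0.58 with wild type replicate 3. The pairing comes from these data, not from the labels. Named genes are kis, all called genes, the genes the study names, and up to 4 members of each of 26 lists with the smallest p by pairs, with neighbours and cell type markers. Members, lists and tests were chosen with earlier results of these data known. Alternatives were other added values, filters and scalings, all 20 libraries, covariates and leaving out each library.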

Additional observations from a re-analysis of the deposited data

Results flagged for a closer look

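In groups of 4, a library was flagged when it stood far from the other 3. This concerned 4 of 106 groups of values examined, where chance flags about 1 in 20. The pseudogene CR43275 was at 1.07 normalized counts in wild type replicate 2 and listed at 0 in the other 3. The mean log2 level of the genes the study names was 6.09 in wild type replicate 4 and 6.78 to 6.90 in the other wild type libraries. Cytosolic ribosomal protein genes had a mean log2 level of 12.29 in CHD8/+ replicate 4 and 11.84 to 11.88 in the other CHD8/+ libraries. Oxidative phosphorylation genes had 9.53 in CHD8/+ replicate 1 and 10.63 to 10.74 in the other CHD8/+ libraries. These mean levels are over the tested members of each list. The causes were not tested.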

How the results depend on the processing

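The 14 genes called without pairs became 26 with all 20 libraries in the fit, 5 with cuticle and muscle level as a covariate, 4 with the roX1 level (chosen after seeing the data), 17 with the replicate block, and 4 to 54 without a library. The 17 called by pairs became 14 with no replicate block, 9 with no filter, 4 to 28 without a pair, 71 with all 20 libraries and the block, 0 with cuticle and muscle level and the block, and 4 with the roX1 level and the block. Against the other mutants, 0 became 1 with 5 added before the log, with quantile normalization and with no variance trend, 2 with the replicate block, and 0 to 7 without a library. The difference of kis ranged from -0.71 to 0.17 without a library, and turned to 0.17 and 0.10 without wild type replicate 1 and CHD8/+ replicate 4. Cyp6a23, at 0.03, ranged from -0.40 to 0.54 without a library. It turned to -0.0083 with quantile normalization, to -0.11, -0.18, -0.21 and -0.40 without wild type replicate 1, wild type replicate 4, CHD8/+ replicate 3 and CHD8/+ replicate 4, to -1.05 with cuticle and muscle level and to -0.37 with the roX1 level, and Pdk1 to 0.24 with cuticle and muscle level. For the 21 called genes, 229 of 367 alternative values kept direction and call, 138 kept the direction without the call, and none reversed. The cause was not tested. Depth limits genes near 10 normalized counts.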
